A study of Paeonia lactiflora with 9 samples.

Results

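The late seeds of herbaceous peony (Paeonia lactiflora ‘Hangshao’) were compared with seeds at mid-development, that is, 90 with 60 days after flowering (DAF). Of the 125685 unigenes of the table, 45644 had an FPKM of at least 0.5 in at least 3 of the 6 libraries of these stages and were tested. FPKM counts fragments relative to the length of a transcript and to all fragments mapped in the library, and a unigene is a contig of the assembly made from these reads, named by a cluster and a contig number (CL) or alone (Unigene). The series holds 3 libraries each of 30, 60 and 90 DAF seeds. Both groups compared here are seeds of the cultivar Hangshao. No treatment is named for them, and apart from replicate numbers their labels differ in age only. According to the methods the seeds were collected from 1 plant, so p-values measure only the spread between these samples, which may be technical, and not that between plants.

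In plant seeds, fatty acids are built in the plastid from acetyl-CoA by acetyl-CoA carboxylase and fatty acid synthase, and the first double bond is set there by the stearoyl-ACP desaturase (SAD). Oleic acid is then desaturated to linoleic acid by FAD2 and to α-linolenic acid by FAD3 in the endoplasmic reticulum, or by FAD7 and FAD8 in the plastid. The acyl chains are joined to glycerol as triacylglycerol, which is stored in oil bodies coated with oleosin (OLE) and caleosin (CLO).

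The pairs of qRT-PCR primers that the study designed are the only designed sequences for these unigenes. They are shown for FAD2, FAD3, KCR and SAD, which fell, and, for contrast, for DGAT and OLE, which were not called. Each pair is given with the unigene for which the study names it. Whether a pair also matches other contigs of the cluster was not checked. All are written 5′ to 3′ in lower case.
FAD2, CL2636.Contig4_All, forward: gccaacagtgtcatcaac
FAD2, CL2636.Contig4_All, reverse: tccacctccttcctcatc
FAD3, CL2686.Contig5_All, forward: ctcttccctcaaatccca
FAD3, CL2686.Contig5_All, reverse: ggtcttgattgatgctcc
KCR, CL15103.Contig1_All, forward: tgaagtggatgagaagttgt
KCR, CL15103.Contig1_All, reverse: ggtcggaaggaataataatgg
SAD, Unigene13977_All, forward: cacttgaacatgcacctcccg
SAD, Unigene13977_All, reverse: aaatctttccctgtgtgtcttccgg
DGAT, CL6160.Contig2_All, forward: agaagttgggatctgagtcaaggtg
DGAT, CL6160.Contig2_All, reverse: ggcagacttgtcttaaaccgcact
OLE, CL8973.Contig3_All, forward: ttgaccactgggtttcttgcttcc
OLE, CL8973.Contig3_All, reverse: caaactgctccgccttgtcctt

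The 6 libraries had similar sums of FPKM, from 651086 to 700670, but these were spread differently over unigenes. The 100 most abundant unigenes took 41.7 to 48.8% of the sum at 60 DAF and 29.4 to 31.4% at 90 DAF, with no overlap. The size factors from the median of ratios were 0.784 to 0.898 at 60 DAF and 1.26 to 1.34 at 90 DAF. Calls were therefore made under both scalings, the deposited FPKM and the FPKM divided by these factors. Values per library are deposited FPKM unless stated otherwise. Changes, sums, medians and adjusted p-values are also on deposited FPKM where no scaling is named. Relative depth was read from the spacing of the lowest FPKM values. It put the 90 DAF libraries at 0.812 to 0.871 of the depth of 60 DAF replicate 1, whereas the other 60 DAF libraries were at 1.0. The study, however, reported similar numbers of clean reads for the 6 libraries. Unigenes above 0 FPKM numbered 74702 to 77489 at 60 DAF and 76163 to 78834 at 90 DAF. The median SD of log2(FPKM + 0.5) within a stage was 0.304 at 60 DAF and 0.384 at 90 DAF.

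Unigenes were called differentially expressed (DEGs) when limma gave a Benjamini-Hochberg adjusted p of at most 0.05, over the whole set tested, and the change in log2(FPKM + 0.5) was at least 1. On deposited FPKM there were 14049 DEGs (30.8% of those tested), of which 9406 (20.6%) were higher and 4643 (10.2%) lower at 90 DAF. Under median-of-ratios scaling there were 10463 (22.9%), of which 3575 (7.83%) were higher and 6888 (15.1%) lower. The scaling moved the change of the median unigene from 0.44 to -0.03, and the share of DEGs that were higher from 67.0 to 34.2%. With quantile normalization this share was 50.5%. The direction of the majority thus differed between scalings, and below "upregulated", "downregulated", "rose" and "fell" are used only for the 8218 unigenes (18.0%) called in the same direction under both, of which 3575 (7.83%) rose and 4643 (10.2%) fell. No unigene was called in opposite directions. Whole seeds were sequenced, so fewer cells of a type and less RNA per cell cannot be told apart.

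**Figure D1:**
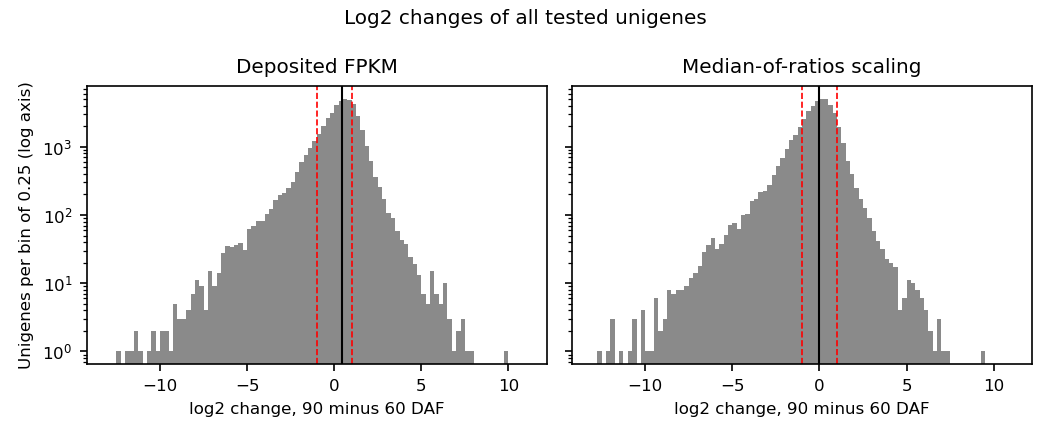
Log2 change from 60 to 90 DAF of the 45644 tested unigenes, in bins of 0.25, on deposited FPKM (left) and under median-of-ratios scaling (right), with the number of unigenes on a log axis. The black line is the median, 0.44 on the left and -0.03 on the right, the dashed red lines are the threshold of 1, and in both panels the tail of falls reaches further than the tail of rises.

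Of the lists and pathways described here, that of the desaturases had the largest share of falls. Of the 24 unigenes that the study lists for the biosynthesis of unsaturated fatty acids, 18 were tested, 17 were downregulated and 0 were upregulated, and the median change was -3.69 on deposited FPKM and -4.06 under median-of-ratios scaling, against 0.44 and -0.03 over all tested unigenes. The study chose this list as DEGs on these libraries, so its direction is not independent evidence. All tested unigenes of SAD (4 of 4), FAD2 (7 of 7), FAD7 (2 of 2) and FAD8 (2 of 2) fell, and 2 of 3 of FAD3. Many of these were contigs of the same cluster (CL6171 and CL2636 for FAD2, CL13349 for FAD7, CL2686 for FAD3). Such contigs do not count as separate genes. With the contigs of each cluster summed, 11 of 11 fell.

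FAD2, which makes linoleic acid, was most abundant as CL2636.Contig4_All. Its FPKM was 332, 217 and 329 in the 3 libraries at 60 DAF and 3.95, 1.36 and 2.72 at 90 DAF. The stages lay far apart, with a log2 change of -6.59 ± 0.35 (SE, adjusted p = 0.000158 in limma) and of -7.17 after scaling. Unigene37303_All, another FAD2, went from 40.7, 35.0 and 36.4 to 1.70, 1.10 and 1.44. Over all 9 FAD2 unigenes the summed FPKM was 399 ± 84.8 at 60 DAF and 5.88 ± 2.13 at 90 DAF (SD, n = 3 each). This sum was 67.8-fold lower on deposited FPKM and 107-fold lower after scaling. An exact two-sided permutation test of 3 against 3 cannot go below p = 0.1, and it gave p = 0.1 for this sum. The sum leaves out unlisted contigs of the FAD2 clusters. All 6 contigs of the cluster CL6171 together had 34.3, 39.3 and 32.8 FPKM at 60 DAF and 7.34, 16.4 and 10.9 at 90 DAF. CL6171 changed by -1.64 and, after scaling, by -2.27, whereas the cluster CL2636 changed by -6.31 and -6.91.

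FAD3, which makes α-linolenic acid, was split over contigs of 1 cluster. CL2686.Contig5_All had 269.8, 109 and 629.8 FPKM at 60 DAF and 0, 0.81 and 0.71 at 90 DAF. CL2686.Contig6_All had 263, 177 and 566 at 60 DAF and 1.76, 0.39 and 0.61 at 90 DAF. In both contigs the 60 DAF libraries differed more than 3-fold among themselves, but none of them came near a 90 DAF library. The log2 changes were -8.16 ± 0.69 and -7.83, with adjusted p of 0.000633 and 0.000327 in limma. CL2686.Contig8_All, the tested FAD3 member that was not called, had 32.9, 98.7 and 0.92 at 60 DAF and 1.56, 0.32 and 0.42 at 90 DAF, so its stages overlapped. With the FPKM of all 9 contigs of the cluster added up, the values were 567, 386 and 1199 at 60 DAF and 4.01, 2.04 and 2.70 at 90 DAF, a change of -7.59 (adjusted p = 6.71e-05 in limma) in which the split between contigs plays no role.

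The plastid enzymes of the same step fell as well. FAD8 Unigene34203_All had 22.4, 38.4 and 33.9 FPKM at 60 DAF and was listed at 0 in all 3 libraries at 90 DAF. Unigene34202_All, also FAD8, had 19.2, 35.2 and 32.5 and then 0.04, 0 and 0. The FAD7 unigene CL13349.Contig2_All went from 9.30, 9.31 and 8.51 to 0.46, 0.32 and 0.41, a change of -3.41 ± 0.21 (adjusted p = 0.000239 in limma). No library of one stage reached the range of the other in these unigenes.

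SAD, which acts first, fell less. Unigene13977_All had 111.0, 128.2 and 106.5 FPKM at 60 DAF and 19.8, 10.7 and 14.4 at 90 DAF, a change of -2.94 ± 0.24 (adjusted p = 0.000551 in limma). The sum of the 6 SAD unigenes was 261 ± 57.0 at 60 DAF and 48.3 ± 19.2 at 90 DAF. This sum was 5.40-fold lower on deposited FPKM and 8.61-fold lower after scaling. Unigene11242_All and Unigene12815_All, also annotated as SAD, were at 0 in all libraries at 60 DAF and at 0.48 to 1.16 in 2 of 3 libraries at 90 DAF, too few to be tested.

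A ratio of the sums of listed unigenes within a library does not depend on the scaling. FAD2 stood to SAD as 1.93, 0.92 and 2.0 at 60 DAF and as 0.212, 0.1 and 0.0847 at 90 DAF. FAD3 stood to FAD2 as 1.28, 1.28 and 2.64 at 60 DAF and as 0.448, 0.423 and 0.291 at 90 DAF. Both ratios were lower in every 90 DAF library. The listed desaturases of the endoplasmic reticulum thus fell more steeply than SAD, and FAD3 more steeply than FAD2. With 3 against 3 libraries the smallest exact permutation p is 0.1, so that no test could pass 0.05.

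**Figure D2:**
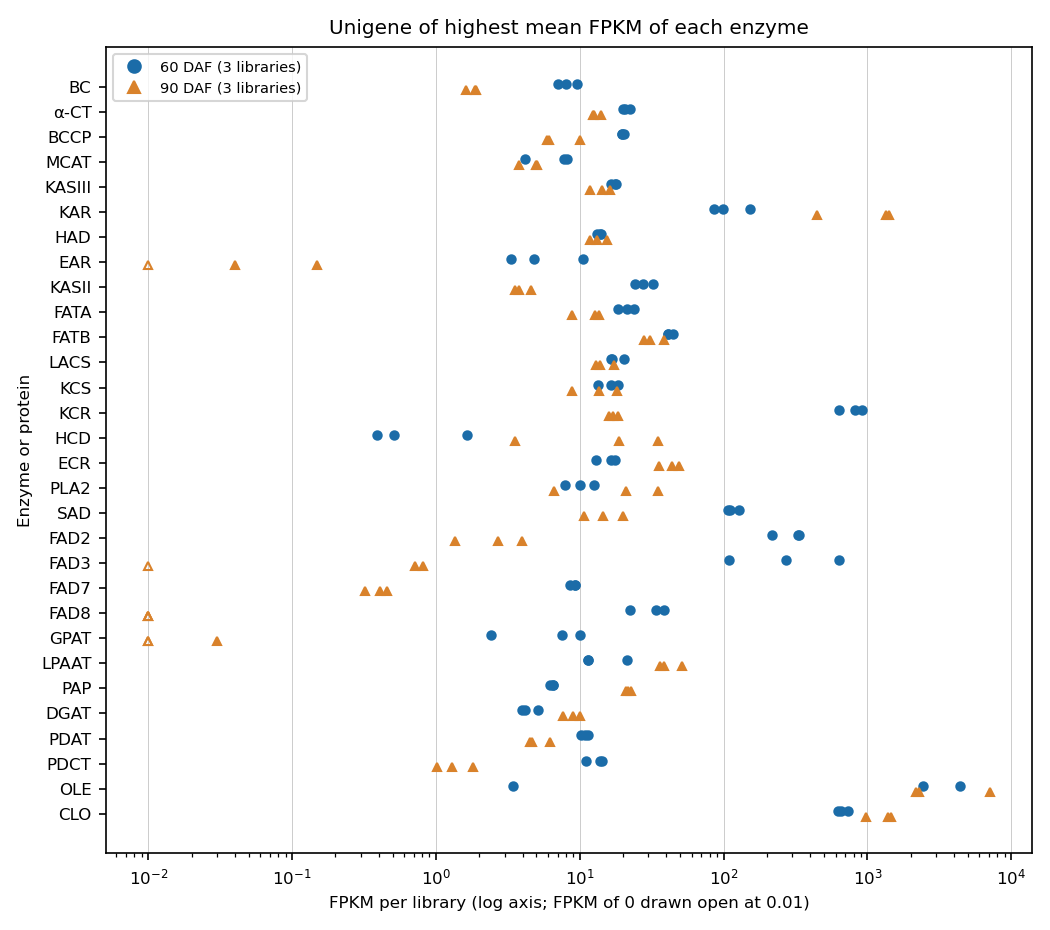
Deposited FPKM per library (log axis) of the unigene with the highest mean FPKM of each of the 30 enzymes and oil body proteins, in the order of the pathway, with circles for the 3 libraries at 60 DAF and triangles for the 3 at 90 DAF, and an FPKM of 0 drawn open at 0.01. FAD2, FAD3, FAD7, FAD8 and KCR show the widest gaps between stages together with EAR and GPAT, whereas KAR, HCD, ECR, LPAAT, PAP, DGAT and CLO lie higher at 90 DAF.

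The enzymes that build the carbon chain were mixed, with more falls than rises. Of 39 unigenes listed for fatty acid biosynthesis, 35 were tested, 14 fell, 5 rose and 16 were not called under both scalings, with a median change of -0.85 on deposited FPKM and -1.43 after scaling. The list was again chosen by the study on these libraries. The share that fell, 40.0%, stands beside 10.2% over all tested unigenes, and the share that rose, 14.3%, beside 7.83%. Most of the rises were contigs of the same cluster, CL7002, so they do not count as separate genes. With the contigs of each cluster summed, 2 of 22 rose and 8 fell.

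Acetyl-CoA carboxylase commits acetyl-CoA to fatty acids. Of its biotin carboxylase (BC) unigenes, 4 of 5 fell, most of them contigs of the cluster CL6932, which do not count as separate genes. Among them was CL6932.Contig4_All, with 8.04, 7.0 and 9.55 FPKM at 60 DAF and 1.91, 1.63 and 1.86 at 90 DAF (-1.91 ± 0.20, adjusted p = 0.00117 in limma). Of the carboxyl transferase subunit (α-CT) 1 of 2 tested unigenes fell. The other, CL5887.Contig1_All, at 20.8, 20 and 22.2 and then 12.3, 12.5 and 14.02, changed by -0.68, short of the threshold on deposited FPKM, and by -1.31 after scaling. For BCCP, the subunit that carries biotin, 3 of 6 tested unigenes fell and 1 rose. The highest, Unigene23603_All, went from 19.7, 20.3 and 19.6 to 9.97, 5.95 and 6.10 (-1.41, adjusted p = 0.0046 in limma).

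The BCCP unigene that rose, CL6718.Contig4_All, was low throughout, at 0.53, 0.16 and 0 FPKM at 60 DAF and 3.23, 3.21 and 2.0 at 90 DAF. Its change was 2.22 on deposited FPKM and 1.85 after scaling. The study printed the sequences of 16 BCCP contigs, and bases 1147 to 1176 of this one span the codon of the lysine to which biotin is attached in BCCP. They are shown because 2 of the unigenes that fell do not share them, with the codon in capitals.
CL6718.Contig4_All, 30 bases: tgcatcattgaagccatgAAAttgatgaat
All 6 contigs of the cluster CL6718 hold these 30 bases without a mismatch, with both strands searched, and the 5 contigs of CL750 hold them with 3 mismatches. In CL14917.Contig1_All and CL14917.Contig2_All, which fell by 1.91 and 1.73 on the log2 scale, the best match had 13 and 12 mismatches. The best match also had 13 mismatches in CL4684.Contig1_All, CL4684.Contig2_All and CL4684.Contig3_All, which are outside the list. They were not called, with changes of -0.09, 0.82 and 0.62. The sequence of Unigene23603_All, which fell as well, was not among the 16. Of the 3 CL750 unigenes of the list, 2 were tested and not called, with changes of -0.27 and -0.28. A match of letters is a description and says nothing of the protein made.

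Within fatty acid synthase the steps differed. The 3-oxoacyl-ACP reductase (KAR) had 4 of 8 unigenes that rose and 0 that fell, with the highest, CL2376.Contig2_All, at 99.7, 85.3 and 153 FPKM at 60 DAF and 1415, 449 and 1349 at 90 DAF. Its change was 3.12 ± 0.49 (adjusted p = 0.00469 in limma), with replicate 2 of 90 DAF well below the others. In that library another contig of the cluster, CL2376.Contig1_All, had 497 FPKM, against 1.39 and 1.94 in the other 90 DAF libraries. Summed over the 4 contigs, the cluster changed by 1.80 (adjusted p = 0.0174 in limma) on deposited FPKM and by 1.15 (adjusted p = 0.10) after scaling, so that the call held on deposited FPKM only. The 3 other KAR unigenes that rose belong to CL7002, whose sum rose by 2.22 and 1.63.

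The enoyl-ACP reductase (EAR), which closes each cycle, fell in 2 of 3 unigenes. CL7296.Contig2_All had 4.83, 3.35 and 10.5 FPKM and then 0.15, 0.04 and 0, and CL7296.Contig3_All had 3.58, 4.29 and 3.23 and was then listed at 0 in all 3 libraries. The whole cluster, with another contig, fell by 1.32 on the log2 scale (adjusted p = 0.00254 in limma), a smaller change than that of its listed contigs. Of the 3-hydroxyacyl-ACP dehydratase (HAD), 2 of 4 unigenes fell, but the highest, CL1701.Contig5_All, had 14.1, 13.2 and 13.8 FPKM at 60 DAF and 15.4, 11.8 and 13.2 at 90 DAF, with overlap.

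KASII extends palmitoyl-ACP to stearoyl-ACP, the substrate of SAD. CL14889.Contig1_All fell from 32.5, 24.3 and 27.3 FPKM to 3.78, 3.54 and 4.60 (-2.67 ± 0.18, adjusted p = 0.000341 in limma), and Unigene29386_All from 19.0, 15.1 and 19.1 to 6.42, 5.96 and 9.70 (-1.24). By contrast, MCAT, KASIII and the thioesterases FATA and FATB, which load malonyl groups, start the chain and release it, were not called on deposited FPKM, with changes of -0.45, -0.30, -0.85 and -0.38 for their highest unigenes. After scaling these were -1.04, -0.94, -1.48 and -1.03, and MCAT, FATA and FATB were called lower. Stage ranges overlapped in MCAT but not in the other 3.

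Elongation, which makes very-long-chain fatty acids, was mixed. Of 33 listed unigenes 26 were tested, 9 fell and 2 rose, with a median of -0.28 on deposited FPKM and -0.91 after scaling. These include 7 unigenes of phospholipase A2 (PLA2), which the study lists here although it is not an enzyme of elongation. All 7 were tested, 1 fell and 0 rose. The falls are 34.6% of those tested, beside 10.2% over all tested unigenes, and the rises are 7.69%, at the background of 7.83%. This list was also chosen by the study as DEGs on these libraries, so the larger share of falls is no independent evidence. The steepest fall was in the ketoacyl-CoA reductase (KCR) unigene CL15103.Contig1_All. At 822, 923 and 630 FPKM it was among the abundant transcripts of the list at 60 DAF, and at 90 DAF it had 17.1, 15.9 and 18.4. The change was -5.48 ± 0.18 (adjusted p = 3.97e-05 in limma) and -6.12 after scaling.

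Of the 13 unigenes of the condensing enzyme KCS, 8 were tested, and 3 fell. CL14039.Contig2_All had 29.9, 23.0 and 22.9 FPKM at 60 DAF and 2.07, 0.41 and 0.39 at 90 DAF (-4.32, adjusted p = 0.00112 in limma), whereas Unigene82243_All, with the highest mean, had 18.3, 16.5 and 13.3 and then 13.5, 8.87 and 18. The last 2 steps, catalysed by HCD and ECR, had members of either direction. The HCD unigene CL6953.Contig3_All rose from 1.64, 0.51 and 0.39 to 3.52, 34.8 and 18.6, while CL6818.Contig4_All fell from 5.24, 4.37 and 4.31 to 1.83, 0.49 and 0.81, although its cluster of 7 contigs changed by -0.47 only and was not called under both scalings. The rise of CL6953.Contig3_All did not hold for its cluster, whose 3 contigs summed to 46.7 to 81.6 FPKM at 60 DAF and 48.8 to 88.4 at 90 DAF (change of 0.15, adjusted p = 0.684 in limma). ECR CL3941.Contig2_All rose from 3.72, 5.95 and 1.70 to 17.7, 23.3 and 12.2, and Unigene30380_All, also ECR, fell from 17.0, 14.8 and 16.3 to 6.67, 5.30 and 9.30. The cluster of CL3941.Contig2_All changed by 1.63 on deposited FPKM and by 0.99 after scaling, just short of the threshold. With replicate 2 of 90 DAF left out, 7 unigenes of the list were called in place of 11, with 0 rises.

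Triacylglycerol assembly did not follow the desaturases. Of 17 listed unigenes 15 were tested, 3 fell and 1 rose, and the median change was -0.06 on deposited FPKM and -0.41 after scaling. A count of 1 rise is 6.67% of those tested, near the background of 7.83%. The 3 falls of 15 tested are a larger share than the background of 10.2%, although they are few. The study chose this list too as DEGs on these libraries, so a share above the background is no independent evidence. The members that fell were those of GPAT, the first acyltransferase, PDAT, which takes its acyl group from phospholipid, and PDCT, which exchanges head groups between phosphatidylcholine and diacylglycerol.

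PDCT CL13909.Contig1_All had 11.1, 13.8 and 14.2 FPKM at 60 DAF and 1.01, 1.29 and 1.81 at 90 DAF (-2.87 ± 0.23, adjusted p = 0.000557 in limma). GPAT Unigene38234_All had 9.98, 7.55 and 2.40 and then 0.03, 0 and 0, whereas Unigene30381_All, the GPAT with primers, had 4.20, 2.84 and 3.77 and then 3.23, 2.09 and 1.5, which overlap. PDAT Unigene43934_All went from 11.3, 10.2 and 10.8 to 6.24, 4.52 and 4.63, a change of -1.02, just past the threshold. It was short of the threshold, at -0.94 to -0.98, when 60 DAF replicate 1, 90 DAF replicate 2 or 90 DAF replicate 3 was left out.

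The 1 rise was in the phosphatidate phosphatase (PAP), which makes diacylglycerol and of which the 3 other tested unigenes were not called under both scalings. CL3787.Contig2_All had 6.55, 6.21 and 6.48 FPKM at 60 DAF and 21.1, 22.7 and 21.8 at 90 DAF, with little spread and no overlap. Its change was 1.69 ± 0.13 (adjusted p = 0.000504 in limma) on deposited FPKM and 1.07 (adjusted p = 0.00209) after scaling, and that of its cluster was 1.73 and 1.10. The LPAAT unigene CL3672.Contig1_All, for the acylation before it, went from 21.4, 11.4 and 11.4 to 51.2, 38.4 and 36.4, a change of 1.53 (adjusted p = 0.00861) on deposited FPKM and of 0.89 after scaling, below the threshold.

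DGAT, which adds the last acyl chain, had 1 listed unigene. CL6160.Contig2_All had 4.14, 5.10 and 3.99 FPKM at 60 DAF and 7.68, 10.1 and 8.90 at 90 DAF. The stages did not overlap, but the change of 0.93 ± 0.19 (adjusted p = 0.0106 in limma) was short of the threshold, and it was 0.33 (adjusted p = 0.286) after scaling. Leaving out 60 DAF replicate 2 or 90 DAF replicate 1 took it to 1.03 and past the threshold on deposited FPKM.

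The oil body proteins, the markers of the oil-storing seed used here, were abundant in all 6 libraries. Of 10 oleosin and caleosin unigenes tested, 0 were called under both scalings, while on deposited FPKM 1 was called higher and after scaling 2 were called lower. The summed FPKM of the 6 oleosin unigenes was 8720, 4810 and 6130 at 60 DAF and 8060, 8540 and 12800 at 90 DAF, with overlapping stages (exact two-sided permutation test, p = 0.3). That of the 4 caleosins was 675, 766 and 647 and then 1440, 1040 and 1520, higher in every 90 DAF library on deposited FPKM (exact permutation p = 0.1, the smallest possible), but with overlap after scaling (p = 0.2).

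In 4 of the 6 oleosin unigenes the stages overlapped, and contigs of CL8973 varied widely within a stage. CL8973.Contig1_All had 4367, 3.42 and 2421 FPKM at 60 DAF, and CL8973.Contig2_All 11.1, 1638 and 513. The sum of the 4 contigs of this cluster was 6794, 3327 and 4756 at 60 DAF and 6703, 7436 and 11634 at 90 DAF. CL8973.Contig3_All, the unigene with primers, went from 1998, 1652 and 1627 to 2693, 2981 and 3606, without overlap, and changed by 0.81 on deposited FPKM, 0.16 after scaling and 1.62 with quantile normalization, where it was called. Unigene26649_All, an oleosin outside this cluster, had 1165, 1016 and 934 and then 704, 690 and 634 (-0.61 and -1.27). CLO CL6205.Contig10_All, with 656, 735 and 629 and then 1386, 977 and 1456, changed by 0.90, 0.25 and, with quantile normalization, 1.16. Within a library, the listed FAD2 unigenes stood to those of oleosin as 0.0506 to 0.0741 at 60 DAF and as 0.000434 to 0.000988 at 90 DAF. These FAD2 transcripts thus fell relative to those of oleosin under any scaling.

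**Figure D3:**
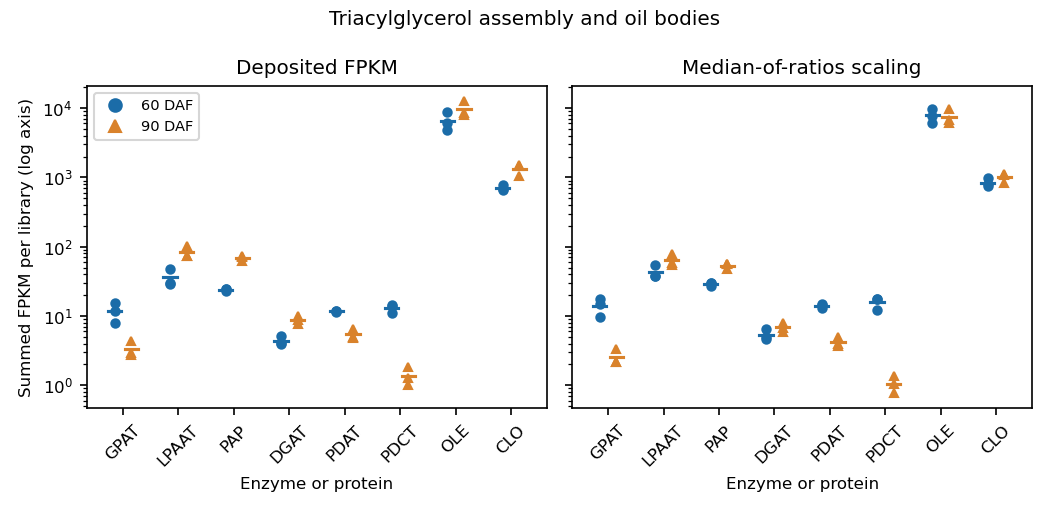
Summed FPKM per library (log axis) of the listed unigenes of 6 enzymes of triacylglycerol assembly and of oleosin and caleosin, on deposited FPKM (left) and after median-of-ratios scaling (right), with circles for 60 DAF, triangles for 90 DAF and a bar for the mean of 3 libraries. GPAT, PDAT and PDCT are lower and LPAAT and PAP higher at 90 DAF in both panels, whereas DGAT and CLO are separated on the left only and OLE overlaps in both.

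Over all 30 enzymes and proteins, the summed FPKM of the 2 stages did not overlap for 26 on deposited FPKM, 7 higher and 19 lower at 90 DAF. Single unigenes without overlap were 37.2% higher and 15.0% lower over the whole table. After scaling it was 24, 3 higher and 21 lower, beside 21.6 and 24.6% of all tested unigenes. The 3 sums that were higher in every 90 DAF library under both scalings were those of PLA2, LPAAT and PAP. Among their single unigenes, 0 of 7 tested rose and 1 fell for PLA2. For LPAAT 0 of 4 tested were called under both scalings, and for PAP 1 of 4 tested rose. The 5 desaturases were lower under both.

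Beyond oil synthesis, the study lists 381 further DEGs of lipid metabolism, of which 317 were tested here. Of these 160 fell (50.5%) and 41 rose (12.9%), with a median change of -1.16 on deposited FPKM and -1.66 after scaling. Over all tested unigenes 10.2% fell and 7.83% rose, with medians of 0.44 and -0.03, and each list below stands beside these values. They were grouped for this comparison into 9 lists by the orthologue the study assigned, and 3 of the lists held falls and no rises. The lists come from DEGs of these libraries, so their counts describe them and no more.

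The oxylipin and jasmonate list holds the route from α-linolenic acid to the wound hormone jasmonate. It also holds linoleate 9S-lipoxygenases and peroxygenases, which lie outside that route. Of its 40 tested unigenes 29 fell (72.5%) and 0 rose, with a median of -2.0 on deposited FPKM and -2.32 after scaling. Falls were found in every orthologue of the list except hydroperoxide dehydratase. All 6 tested 12-oxophytodienoate reductases, all 3 allene oxide cyclases, all 3 OPC-8:0 CoA ligases and all 3 peroxygenases fell, with 5 of 12 lipoxygenases and 4 of 6 linoleate 9S-lipoxygenases. The 9S-lipoxygenase Unigene34215_All had 31.0, 36.5 and 31.2 FPKM at 60 DAF and 0.23, 0 and 0.07 at 90 DAF (-5.81 ± 0.22, adjusted p = 5.43e-05 in limma). The peroxygenase CL6439.Contig1_All had 61.9, 38.0 and 24.2 and then 0.42, 0.06 and 0.06. Hydroperoxide dehydratase, the step between lipoxygenase and allene oxide cyclase, had 1 tested unigene, called higher on deposited FPKM only (1.20 and, after scaling, 0.79).

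Sterol synthesis had 24 of 42 tested unigenes that fell (57.1%) and 0 that rose, with a median of -1.37 on deposited FPKM and -1.8 after scaling. Those of squalene synthase, which makes the first committed precursor and is annotated as farnesyl-diphosphate farnesyltransferase, fell in 13 of 16, and those of squalene monooxygenase, which follows it, in 4 of 4. Unigene20575_All, a squalene synthase, had 126, 89.2 and 84.2 FPKM at 60 DAF and 0.07, 0 and 0 at 90 DAF. Unigene41108_All, of the same annotation, had 141, 104 and 67.4 and then 0.10, 0.03 and 0.03 (-7.50 ± 0.29, adjusted p = 5.63e-05 in limma). Both were at or close to 0 in every 90 DAF library. Of cycloartenol synthase, which closes the sterol rings, 2 of 5 fell.

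The cutin, suberin and wax list, for the lipids of surface layers, had 7 of 11 tested unigenes that fell (63.6%) and 0 that rose. All 3 tested fatty acyl-CoA reductases fell, and CL244.Contig2_All, the highest, had 46.8, 35.2 and 27.7 FPKM at 60 DAF and was listed at 0 in all 3 libraries at 90 DAF. Of the 20 members 9 were below the filter.

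Among the sphingolipid list 31 of 53 fell (58.5%) and 5 rose (9.43%). However, 22 of these falls were beta-galactosidases, an annotation that in plants covers mainly enzymes of cell wall polysaccharides. CL8334.Contig1_All was the steepest, with 280.6, 269.9 and 231.8 FPKM at 60 DAF and 0.17, 0 and 0.03 at 90 DAF (-8.86 ± 0.18, adjusted p = 1.29e-05 in limma). Another beta-galactosidase, Unigene34170_All, rose from 1.46, 3.43 and 1.90 to 42.2, 21.3 and 23.1. Of sphinganine-1-phosphate aldolase, which cleaves sphingoid bases, all 3 tested unigenes fell, whereas 0 of 3 ceramide synthases were called under both scalings.

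Membrane lipids were mixed by step. In the phospholipid list 24 of 55 fell (43.6%) and 8 rose (14.5%). All 4 tested phospholipase C unigenes fell, which release the head group of phospholipids, as did all 4 NAD-dependent glycerol-3-phosphate dehydrogenases, and 4 of 4 and 4 of 6 unigenes of the 2 orthologues of glycerophosphodiester phosphodiesterase. Choline kinase, which starts phosphatidylcholine synthesis, had 2 of 4 that rose and 1 that fell. In the galactolipid and acylglycerol list 22 of 51 fell (43.1%) and 8 rose (15.7%). The galactolipid synthases, which make the lipids of plastid membranes, fell in all 5 tested unigenes, 2 for monogalactosyl- and 3 for digalactosyldiacylglycerol. Acylglycerol lipases went both ways, with 9 that fell and 6 that rose of 21. Unigene34190_All fell from 174, 169.6 and 118 to 0.24, 0.04 and 0.49, and Unigene7042_All was listed at 0 in all 3 libraries at 60 DAF and had 7.87, 5.86 and 4.08 at 90 DAF.

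In the list for beta-oxidation and the alcohol and aldehyde dehydrogenases 15 of 34 fell (44.1%) and 6 rose (17.6%). The class-P alcohol dehydrogenases made up 9 of the falls and 2 of the rises, with CL585.Contig6_All from 64.1, 47.0 and 54.9 FPKM to 0 in all 3 libraries. The cluster of this contig as a whole, however, changed by only -0.67 and was not called under both scalings. The rises were of low unigenes, CL585.Contig9_All from 0.46, 0.08 and 0.16 to 1.78, 2.17 and 2.40 and CL656.Contig8_All from 0.88, 0.81 and 0.42 to 3.67, 2.08 and 3.83. The abundant CL656.Contig5_All, of the same annotation, with 253, 460 and 249 and then 1421.5, 695.5 and 993.3, was called on deposited FPKM and not after scaling (1.69 and 1.04). Acyl-CoA oxidase, the first enzyme of beta-oxidation, had 3 tested unigenes of which 1 rose and 1 fell.

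The annotation to arachidonic acid metabolism was the list with more rises than falls among those of more than 5 members. Of 27 tested unigenes 13 rose (48.1%) and 8 fell (29.6%), with a median of 1.62 on deposited FPKM and 1.06 after scaling. Of unigenes named after the animal cytochrome P450 family CYP2J, 7 of 12 rose and 1 fell, and of the soluble epoxide hydrolases, which open epoxide rings, 6 of 9 rose and 2 fell. CL11313.Contig2_All, a P450 of this name, had 12.9, 6.28 and 0.44 FPKM at 60 DAF and 476, 471 and 2109 at 90 DAF (7.47 ± 1.09, adjusted p = 0.00349 in limma). Reads of this cluster were split unevenly, with CL11313.Contig1_All at 466, 697 and 3.34 at 90 DAF, and the sum of the cluster rose by 8.19. The epoxide hydrolase Unigene44412_All rose from 56.7, 69.1 and 37.3 to 297, 437 and 419. The falls included the 4 glutathione peroxidases, which reduce lipid peroxides, with CL6460.Contig2_All from 50.3, 40.6 and 36.5 to 7.59, 7.72 and 14.1, and a gamma-glutamyltranspeptidase.

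**Figure D4:**
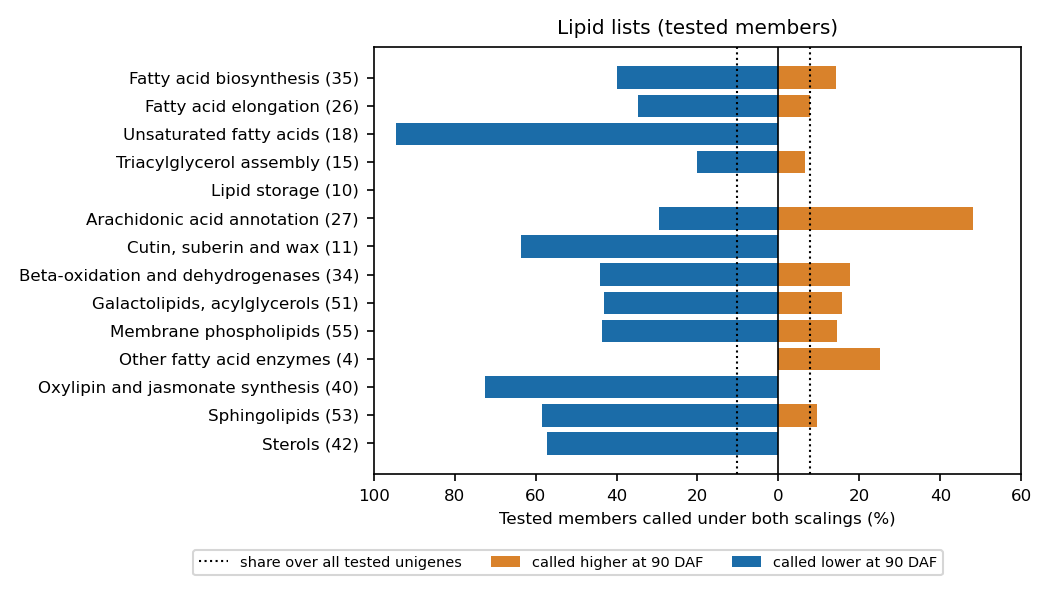
Share of tested members (number in brackets) called higher (right, orange) or lower (left, blue) at 90 DAF under both scalings, for the 5 lists of oil synthesis and the 9 other lipid lists, with dotted lines at the shares over all tested unigenes, 7.83 and 10.2%. Unsaturated fatty acids reach 94.4% on the left, oxylipins 72.5% and sterols 57.1%, lipid storage has no bar, and the arachidonic acid annotation reaches 48.1% on the right.

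The stages were also compared over 22 pathways of the KEGG database, with the members taken from the part of the study's pathway annotation of DEGs that was held here. These members were again DEGs of these libraries, so a share above the background follows from the choice and only the balance of rises and falls is described. The proteasome, which degrades proteins tagged with ubiquitin, had 17 of 28 tested unigenes that fell and 0 that rose, with a median of -2.79, and the antenna proteins, which bind chlorophyll, had 9 of 11 that fell and 0 that rose. CL15975.Contig3_All, assigned to the proteasome, had 304, 142 and 440 FPKM at 60 DAF and was listed at 0 in all 3 libraries at 90 DAF. For the antenna proteins the largest fall was that of CL1492.Contig5_All, from 5.21, 3.89 and 5.17 to 0 in all 3 libraries. The 9 that fell were low at 60 DAF, and all but 1 of them came from the clusters CL1492 and CL5770, so they do not count as separate genes.

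Falls also outnumbered rises in 3 pathways of carbon metabolism. Of glycolysis and gluconeogenesis, which supplies carbon for fatty acids, 39 of 93 unigenes fell and 5 rose, of carbon fixation 32 of 73 fell and 9 rose, and of starch and sucrose metabolism 58 of 142 fell and 20 rose. CL3984.Contig4_All, assigned to carbon fixation, had 169, 164 and 130 FPKM at 60 DAF and was listed at 0 at 90 DAF, while CL5701.Contig1_All, assigned to carbon fixation and to glycolysis, rose from 9.81, 5.94 and 5.56 to 60.1, 75.7 and 90.3. Flavonoid synthesis, the route to seed coat pigments, had 23 falls and 7 rises of 41. Its extremes were CL1555.Contig4_All, which went from 3036, 2262 and 1679 to 1.35, 0 and 0.19 (-11.36 ± 0.51, adjusted p = 8.43e-05 in limma), and CL1691.Contig3_All, which went from 2.18, 1.46 and 0.29 to 133, 227 and 210.3 (6.85).

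Rises outnumbered falls in other pathways. DNA replication had 20 rises and 7 falls of 56 tested, ABC transporters 23 and 8 of 71, and the spliceosome 57 and 35 of 174. For the ribosome, at 25 and 21 of 108, and RNA transport, at 41 and 35 of 150, the numbers were close, whereas endocytosis had 19 rises and 69 falls of 165. CL2640.Contig1_All, assigned to ubiquitin-mediated proteolysis, rose from 3.77, 4.44 and 2.55 to 252, 258 and 362 (6.16 ± 0.24, adjusted p = 5.77e-05 in limma). In plant hormone signal transduction, 60 of 176 fell and 37 rose, and its largest fall, CL5572.Contig2_All, was among the most abundant transcripts of the table at 60 DAF, with 8229, 5793 and 9063 FPKM, against 96.2, 56.4 and 166 at 90 DAF.

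**Figure D5:**
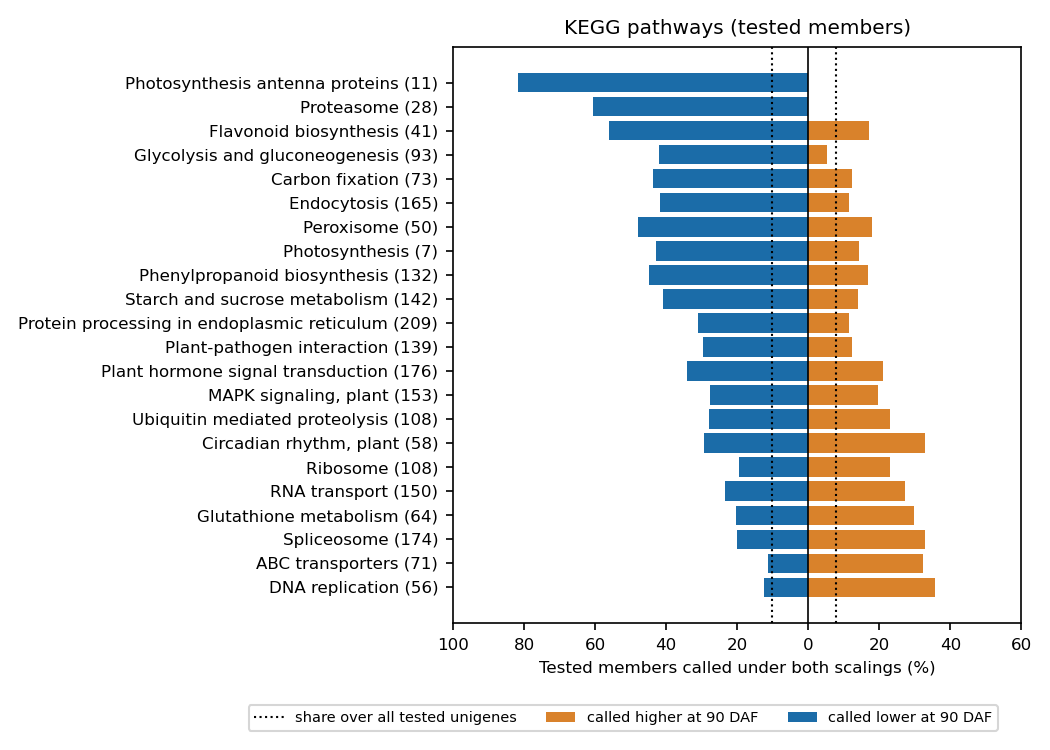
Share of tested members (number in brackets) of 22 KEGG pathways called higher (right, orange) or lower (left, blue) at 90 DAF under both scalings, ordered by the difference of the shares, with dotted lines at 7.83 and 10.2%, the shares over all tested unigenes. The antenna proteins (81.8%) and the proteasome (60.7%) have bars on the left only, and DNA replication has the longest bar on the right, 35.7%.

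Transcripts found in 1 stage only were counted next. With at least 0.5 FPKM in all 3 libraries of 1 stage and 0 in all 3 of the other, 773 unigenes were found at 60 DAF only and 283 at 90 DAF only. These counts rest on single libraries, since without 90 DAF replicate 1, 2 or 3 they were 1139 and 801, 1036 and 851, and 1072 and 915, with 60 DAF ahead each time but by less. Among the 123 unigenes of oil synthesis there were 3, all at 60 DAF, namely BC CL6932.Contig1_All, EAR CL7296.Contig3_All and FAD8 Unigene34203_All. Among the other lipid unigenes 26 were found at 60 DAF only and 3 at 90 DAF only, the latter being the P450 Unigene45448_All, at 6.38, 8.63 and 3.64 FPKM, and the acylglycerol lipases Unigene6153_All and Unigene7042_All. The depth read from the lowest FPKM values was lower at 90 DAF, whereas the reported clean reads were similar. Unigenes above 0 were not fewer at 90 DAF, with 76163 to 78834 beside 74702 to 77489 at 60 DAF. The part of depth in this count was not tested.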

How the data were processed

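Per the labels and the methods, mRNA of ‘Hangshao’ seeds was sequenced with 3 libraries per stage. The authors assembled unigenes without a genome, mapped reads to them by Bowtie2, and the deposited FPKM values come from RSEM and have 2 decimals. Versions were not given in the sources used here. Of the table, 9 lines without a unigene were left out. The authors used DESeq2, which needs counts, so limma 3.58.1 in R 4.3.3 was fitted here to log2(FPKM + 0.5) of the 6 libraries, a scale that understates changes of low FPKM, with a variance trend. In simulated data for 90 against 60 DAF with 45644 unigenes, the test recovered 96 of 100 unigenes with a log2 change of 2 and 100 of 100 with one of 3. It also called 8 unchanged unigenes. The changed unigenes were few and not of low FPKM, and the noise was normal and independent. Shifts of composition and reads split between contigs were not simulated, so the recovery does not give the sensitivity for the real libraries. Median-of-ratios factors used unigenes above 0 in all 6 libraries. Enzyme sums were tested with exact permutation in scipy 1.17.1. Lists, pathways and primers are identifiers from the study's supplementary tables. The pathway lists were held in part only.

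Named unigenes were the 16 with primers, the highest of each enzyme and members called opposite to it, the 2 largest rises and falls of each lipid list, the largest of each pathway, and the 2 largest rises and falls of all. Of these 101 tested unigenes a part is printed, and that part, with further members, was picked after the values were seen. Members and lists were chosen with earlier results of these data known. Alternatives were other added values, filters, thresholds, variance models and scalings, all 9 libraries, the replicate block, summed clusters and each library left out.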

Additional observations from a re-analysis of the deposited data

How the results depend on the processing

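The numbers of DEGs kept within 1.5 times their values under other added values, filters, variance models, with 9 libraries, on summed clusters and with quantile normalization (11703), but at an adjusted p of at most 0.01 they were 8946 on deposited FPKM, 6894 after scaling and 5335 under both. With each library left out they were 11065 to 14469, 8538 to 10385 and 6594 to 8404. On summed clusters, which hold fewer members, 10 of 22 clusters of fatty acid biosynthesis, 7 of 21 of elongation and 11 of 11 of the desaturases were called. For biosynthesis 2 of these were higher and 8 lower, and for elongation and the desaturases all were lower. With a library left out the calls were 17 to 19 for biosynthesis, 7 to 11 for elongation, 15 to 17 for the desaturases, 3 to 4 for assembly and 0 to 1 for lipid storage, which had 2 with all 9 libraries, 1 in each direction. The 1 lipid storage call was higher without 60 DAF replicate 2 and lower without 90 DAF replicate 3. Enzyme sums without overlap were 24 after scaling and 26 to 28 with a library left out. Unigenes found in 1 stage only were 564 with a limit of 1 FPKM and 1456 to 1987 with a library left out, 1940, 1887 and 1987 without 90 DAF replicates 1, 2 and 3, when a unigene has to meet the rule in fewer libraries. The last 2 kinds of omission were added after seeing the data. Of the named unigenes, CL16060.Contig1_All (-6.48) turned to 2.27 when the 7 contigs of its cluster were summed.

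The replicate numbers did not pair the libraries. Deviations of same-numbered libraries from their stage means correlated by -0.07, -0.12 and 0.14 across unigenes, which are not independent replicates. With the replicate block 12340 unigenes were called on deposited FPKM, 8971 after scaling and 7139 under both, and 18, 10, 16, 4 and 0 members of the 5 lists of oil synthesis in the order above. Values near 0 FPKM rest on few reads, and contigs of 1 cluster share reads, so single contigs are less certain than the sum of a cluster.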

Other observations

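The largest changes of the whole table were in unigenes for which no annotation was used here. CL644.Contig3_All had 3072, 4799 and 1437 FPKM at 60 DAF and was listed at 0 in all 3 libraries at 90 DAF, although its cluster as a whole fell by 7.34 on the log2 scale only, and the fitted change of the contig itself depends on the added 0.5 and is not given. CL4505.Contig1_All had 5061, 3976 and 2480 and then 2.44, 0 and 0.23 (-11.81 ± 0.68, adjusted p = 0.000194 in limma). On the other side, Unigene34010_All was listed at 0 in all libraries at 60 DAF and had 477, 383 and 490.1 FPKM at 90 DAF, and CL1460.Contig1_All went from 3.01, 13.3 and 1.23 to 1122, 1163 and 996 (7.96 ± 0.71, adjusted p = 0.000741). The 10 most abundant unigenes took 14.6 to 19.6% of the summed FPKM at 60 DAF and 11.2 to 12.6% at 90 DAF.

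Contigs of the glutathione metabolism cluster CL16060 moved in opposite directions. CL16060.Contig1_All had 69.2, 44.9 and 35.2 FPKM at 60 DAF and 0, 0.13 and 0 at 90 DAF, while CL16060.Contig7_All had 0.82, 0.71 and 0.36 and then 73.4, 52.1 and 78.7. The sum of all 7 contigs, most of it from others, was 176, 128 and 107 at 60 DAF and 632, 656 and 661 at 90 DAF, and it rose by 2.27 on deposited FPKM and by 1.63 after scaling.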
